A study of Mus musculus with 15 samples.

Results

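Hematopoietic progenitors of a mouse line heterozygous for a Ddx41 knockout were compared after infection with a retrovirus encoding the G173R or the R525H form of DDX41. The comparison uses 6 of the 15 libraries of the series, 3 for each vector, chosen by the sample titles. The fit that compares them was made across all genes and all 15 libraries, with the replicate number (1, 2 or 3) as a block. Every log2 fold change is G173R minus R525H unless stated otherwise, so a positive value means a higher level with G173R.

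Per the labels, the cells are fetal liver progenitors immortalized with Hoxb8 and grown in medium with β-estradiol, from a line with both copies of Ddx41 (hi-Ddx41+/+, here WT) and a heterozygous line (hi-Ddx41+/-, here Het). The WT line received an empty virus (WT empty), and the Het line an empty virus (Het empty), one encoding unmutated DDX41 (Het DDX41) or one encoding either substitution (Het G173R and Het R525H), with 3 libraries in each of the 5 groups. Cells were exposed to virus for 2 days and sorted for GFP, and total RNA was sequenced after removal of ribosomal RNA with a stranded kit. The labels name each genotype as a single line and do not say that the 3 libraries of a group come from separate infections, so the p-values rest on a spread between libraries that may be technical.

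DDX41 is a DEAD-box RNA helicase, an enzyme that unwinds RNA with the energy of ATP and takes part in pre-mRNA splicing and in the handling of RNA bound to DNA or to small nucleolar RNAs (snoRNAs, which guide the modification of ribosomal RNA). Inherited variants of the human gene predispose to myeloid neoplasms. R525H is the substitution most often acquired in the second copy and lies in the helicase domain, while G173R is a variant described in patients.

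The titles and the names of the deposited tables disagree. The tables recorded for the libraries titled G173R carry a code that reads as empty vector, and those titled R525H a code that reads as wild-type DDX41. Groups follow the titles here, so each statement about G173R or R525H concerns the libraries with those titles, and the expression of the targeted gene did not separate the vectors. Depth ranged from 22104066 expected counts in R525H library 3 to 40527116 in R525H library 2, with the G173R libraries in between. Libraries numbered 3 stood apart from those numbered 1 and 2 in both groups: the log2 level correlated at 0.9873 across genes between the libraries numbered 3, and at 0.9739 to 0.9806 between a library numbered 3 and any of the others. All 8 progenitor markers examined (Cd34, Kit, Flt3, Myb, Spi1, Runx1, Ptprc and Hoxb8) were detected, with a summed level of 3190 to 3520 CPM (counts after scaling each library to the same total) with G173R and 2830 to 3290 with R525H. Markers of other cell types summed to 301 to 341 CPM against 332 to 357 for monocytes, 20.6 to 35.1 against 25.8 to 46.9 for neutrophils, 23 to 26.7 against 19.2 to 23.9 for mast cells and 2.12 to 2.47 against 1.08 to 1.63 for erythroid cells. Those of eosinophils summed to 47.3 to 64.2 CPM against 49.8 to 57.4, of B cells to 8.14 to 11.6 against 7.13 to 8.11, of T cells to 0 to 0.227 against 0 to 0.272, and of stroma or liver to 6.76 to 16.6 against 7.69 to 14.1. Of the defining markers, Fcer1a, Hba-a1, Pax5, Alb, Col1a1, Col3a1 and Cdh5 were at 0 in all 6 libraries. In bulk RNA, a change in the number of cells of one type and a change in RNA per cell cannot be told apart.

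Ddx41 itself stood at 35.2, 36.9 and 27.8 CPM in the G173R libraries and at 32.7, 34.6 and 29.1 CPM in the R525H libraries. The groups overlapped, and the log2 difference was 0.05 (95% interval -0.09 to 0.18, adjusted p = 0.807). Het empty libraries held 29.4, 33 and 28.7 CPM, Het DDX41 34.5, 35.3 and 29.5 CPM, and WT empty 58.8, 63.4 and 55.6 CPM. The level of Ddx41 therefore separated the WT line from the Het line and not the vectors from each other. The tables do not show whether RNA from a vector was counted under this gene, so it does not check which vector a library carries.

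Of 14548 genes tested with edgeR's quasi-likelihood test and Benjamini-Hochberg adjustment, 141 (0.969%) were called at an adjusted p under 0.05. With G173R, 85 were higher (0.584%) and 56 lower (0.385%). All 141 moved the same way in the 3 same-numbered pairs, compared with 40.8% of all genes tested. For 120 of them the groups did not overlap, compared with 11.1% of all genes. The 141 were called on these same libraries with the pairs as a block, so both counts follow largely from that choice and are a description. Most differences were small, with a median of 0.47 on the log2 scale regardless of sign, and 15 genes differed by more than 2-fold. Among these, the 4 genes higher with G173R were expressed at a few CPM at most: Acy3 (mean 1.54 against 0.51 CPM), Ctxn1 (1.92 against 0.781), Chd3 (4.77 against 2.14) and the uncharacterized D830025C05Rik (0.545 against 0.104), all chosen for mention after their values were seen. The 11 genes lower with G173R included the chemokine Cxcl10, the cystatin Stfa1 and the paired receptors Pilra and Pilrb1, the others being predicted gene models.

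The block mattered for the count. Without it 12 genes passed (0.0825%), all of them among the 141. Chchd1, Stk4, Ptprs, Cep55, Aebp1, Man2c1, Cc2d1b and Pak2 (0.055%) were higher with G173R, and Snhg1, Clk3, Tlr4 and Hbs1l (0.0275%) were lower (adjusted p 0.0195 to 0.045, edgeR). Leaving out any 1 of the 6 libraries left 50 to 100 calls, and 6 to 68 genes were called when both libraries of a pair were left out, as detailed in the closing section.

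**Figure D1:**
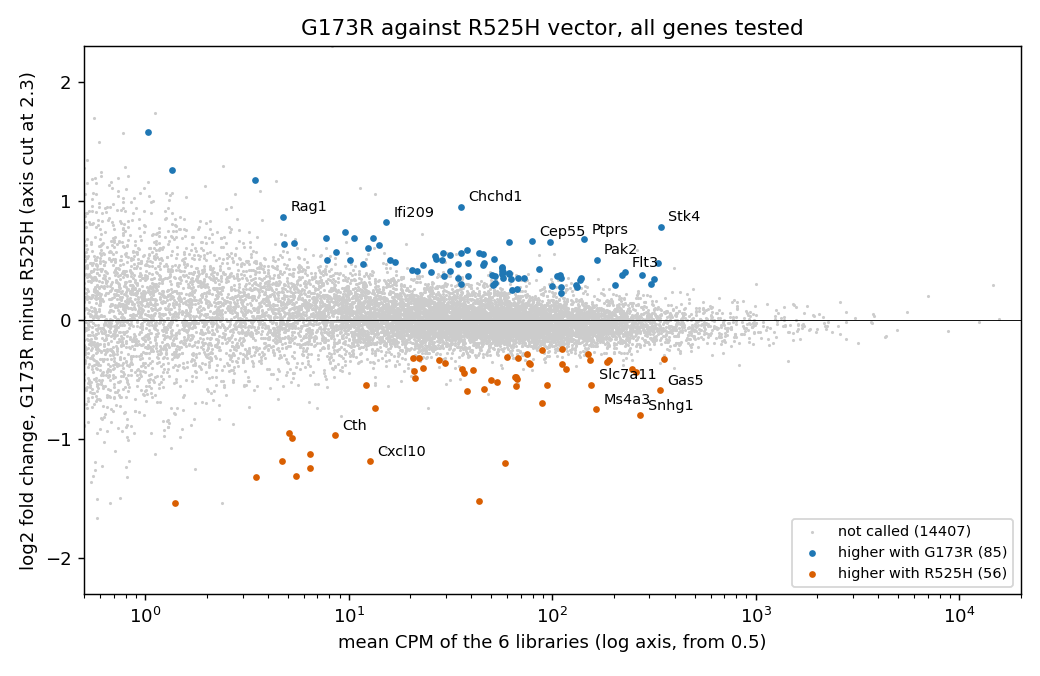
Log2 fold change of G173R minus R525H (vertical axis) against the mean CPM of the 6 libraries (horizontal log axis) for all genes tested; blue points are the 85 genes called higher with G173R, orange points the 56 called lower and grey points all others. Abundant genes such as Stk4 (0.78) and Snhg1 (-0.80) stand out from grey points of the same level, and 3 called genes of very low level lie outside the axes.

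The protein kinases Stk4 and Pak2 were among the clearest differences. Stk4 encodes MST1, the mammalian Hippo kinase, which is needed for lymphocyte homing and survival. It stood at 453, 439 and 402 CPM with G173R and at 261, 261 and 230 CPM with R525H. The lowest G173R library was well above the highest R525H library, and the log2 difference was 0.78 ± 0.06 (SE, adjusted p = 4.84e-05). Pak2, a kinase that acts downstream of the small GTPases Rac and Cdc42, stood at 199, 201 and 182 CPM with G173R and at 141, 135 and 133 CPM with R525H, again without overlap (0.51 ± 0.05, adjusted p = 0.000241). No other gene on the list of 20 Hippo and PAK pathway genes tested was called. Their median was 0.002 (-0.011 without R525H library 3), with 10 positive and 10 negative values, and the median over all genes was 0. The GTPase gene Rac1, for example, had 207 ± 8.77 CPM (SD, n = 3) with G173R and 190 ± 22.2 with R525H (adjusted p = 0.375), and the Hippo-related kinase gene Stk38 61.8 ± 2.33 and 67.2 ± 1.92 (adjusted p = 0.334).

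Cep55, which encodes a protein of the midbody at which dividing cells separate, stood at 101, 95.4 and 97.1 CPM with G173R and 66.8, 63.3 and 55.7 CPM with R525H. The groups did not overlap, and the difference was 0.66 ± 0.06 (adjusted p = 0.00015). Cep55 was the 1 gene called with edgeR among 27 cytokinesis and abscission genes tested, and DESeq2 called 2, both higher. The median of the list was -0.028 (0.003 without R525H library 1). No call fell among 24 genes of G2 and mitosis (median -0.035, 2 with an unadjusted p under 0.05 in edgeR) or 25 of DNA replication and S phase (median -0.028, 4 with an unadjusted p under 0.05), and DESeq2 and limma voom called 0 in both lists. The first median was -0.01 without G173R library 2, -0.018 without G173R library 3 and -0.012 without R525H library 1, and the second 0.021 without G173R library 3, 0.031 without R525H library 1 and -0.057 without R525H library 3. Mki67, a marker of cycling cells, had 851 ± 61.8 CPM with G173R and 767 ± 39.3 with R525H (adjusted p = 0.235). Tyms, which makes thymidylate for DNA synthesis, had 111 ± 12.6 and 94.9 ± 6.3 CPM (adjusted p = 0.145). Ccnd1, the G1 cyclin D1, was higher with G173R, at 12.9, 13.8 and 9.34 CPM against 7.5, 8.01 and 5.99 CPM (0.74 ± 0.08, adjusted p = 0.000378).

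Chchd1 had the largest rise among genes of at least 5 CPM. This gene, which encodes a small protein of the mitochondrial ribosome, stood at 49.7, 54.6 and 36.4 CPM with G173R and 25.7, 23.8 and 22.7 CPM with R525H (0.95 ± 0.11, adjusted p = 0.000471). Ptprs, a receptor tyrosine phosphatase that binds proteoglycans, had 159, 169 and 201 CPM against 98, 112 and 121 CPM (0.68 ± 0.05, adjusted p = 4.84e-05). Aebp1, a secreted protein that binds collagen, had 124, 125 and 109 CPM against 84.1, 80.3 and 63.4 CPM (0.65 ± 0.08, adjusted p = 0.000736). In each of these 3 genes the groups did not overlap. The macrophage elastase gene Mmp12 (0.66), Ddah2 (0.69), of the family of enzymes that hydrolyse dimethylarginine, Btbd2 (0.69) and Grcc10 (0.69) rose as well, with adjusted p from 0.00863 to 0.0159. The calls for these 4 genes were lost in some fits without 1 library. For Mmp12 this held without G173R library 1 or 3 or any R525H library, for Ddah2 and Btbd2 without G173R library 1 or 3 or R525H library 1 or 3, and for Grcc10 without G173R library 3 or R525H library 3. The call for Btbd2 was also lost when counts were corrected for base composition (adjusted p = 0.0624).

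Rag1, Rag2 and Flt3, the genes called on the early lymphoid list and on the stem and progenitor list, were higher with G173R. Rag1 and Rag2 encode the recombinase that cuts antigen receptor genes and is a feature of lymphoid-primed progenitors. Rag1 stood at 5.08, 4.84 and 8.6 CPM with G173R and 3.82, 2.7 and 3.4 CPM with R525H (0.87 ± 0.18, adjusted p = 0.0376). Rag2 stood at 37, 35.3 and 22.4 CPM against 26.5, 25.3 and 14.8 CPM (0.51 ± 0.07, adjusted p = 0.00205). Rag2 was higher with G173R in every pair, but the libraries numbered 3 were low in both groups and the groups overlapped. These were the 2 calls among 10 early lymphoid genes tested, 9 of which had positive values (median 0.359), and DESeq2 called 3. Ebf1, a transcription factor of the B lineage, had 49.8 ± 2.53 and 42.3 ± 2.2 CPM (adjusted p = 0.11). The summed B cell markers were at 8.14 to 11.6 CPM with G173R and at 7.13 to 8.11 with R525H, and their part in the result was not tested.

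Flt3, the cytokine receptor of multipotent and lymphoid-primed progenitors, stood at 264, 264 and 246 CPM with G173R and 202, 211 and 175 CPM with R525H (0.40 ± 0.06, adjusted p = 0.00649). It was the 1 call among 17 stem and progenitor genes tested, of which 14 had positive values (median 0.115, 0.074 without R525H library 3), and DESeq2 called 2. Kit, the stem cell factor receptor, had 500 ± 10.3 CPM against 441 ± 8.48 (0.18, adjusted p = 0.173). Hoxb8, which includes the immortalizing construct if its reads were counted there, had 32.9 ± 5.65 against 24.9 ± 4.96 CPM (0.40, adjusted p = 0.205). The call for Flt3 was lost without G173R library 1. That for Rag1 was lost without G173R library 1, 2 or 3 or R525H library 2 or 3 and in limma voom. That for Rag2 passed in all 6 fits without 1 library. All 3 calls were lost without the block (adjusted p = 0.195 for Flt3, 0.272 for Rag1 and 0.843 for Rag2, edgeR). They were also lost when all libraries numbered 1 or all numbered 2 were left out.

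**Figure D2:**
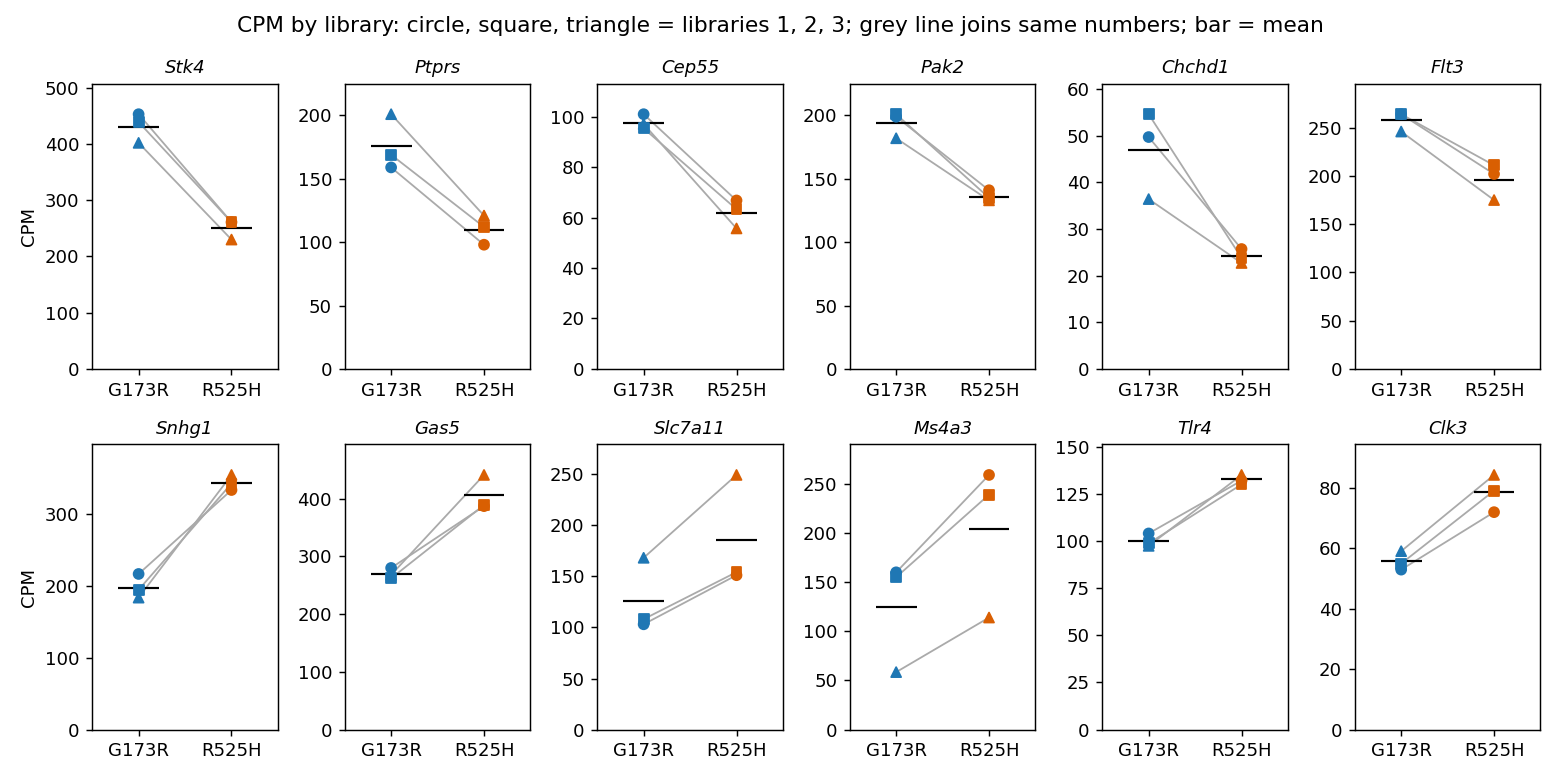
CPM of 12 called genes (vertical axes, from 0) in the 3 G173R libraries (blue) and the 3 R525H libraries (orange); circles, squares and triangles are libraries 1, 2 and 3, grey lines join libraries of the same number and black bars are means. All lines slope down from G173R to R525H in the upper row and up in the lower row, and for Slc7a11 and Ms4a3 the libraries numbered 3 stand apart in both groups. The genes were called on these libraries, so the common slope is a description.

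The snoRNA host genes Snhg1 and Gas5 were lower with G173R. They are transcribed as long RNAs whose introns yield snoRNAs, while the spliced exons carry no long reading frame and are removed by nonsense-mediated decay. Snhg1 stood at 217, 195 and 184 CPM with G173R and 334, 343 and 355 CPM with R525H (-0.80 ± 0.10, adjusted p = 0.000937). Gas5 stood at 280, 262 and 268 CPM against 387, 389 and 441 CPM (-0.59 ± 0.10, adjusted p = 0.0105). Both were lower in each G173R library than in any R525H library. The 14 snoRNA host genes tested held these 2 calls, and 12 of the 14 had negative values (median -0.164). DESeq2 called 3, and the median was -0.252 without R525H library 1 and -0.098 without R525H library 2. Snhg5 had 68.4 ± 15.3 and 90.4 ± 2.6 CPM (adjusted p = 0.0931), and Snhg12 had 38.8 ± 2.94 and 47.5 ± 1.7 CPM (adjusted p = 0.255). The call for Snhg1 held in each fit without 1 of the 6 libraries, and that for Gas5 was lost without G173R library 1 or 3 or R525H library 2 or 3.

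Many snoRNA host genes and ribosomal protein genes start transcription at a C followed by a run of pyrimidines (a terminal oligopyrimidine, or TOP, start), so the bases around the annotated starts of Gas5 and Snhg1 are shown. Each line gives 30 bases of the RefSeq promoter window (GRCm38.p6, plus strand), from position -10 to position 19 relative to the start. Capitals mark a C with at least 4 pyrimidines after it within 5 bases of the start, on the strand of the gene.
Gas5 (chr1:161035156-161035185): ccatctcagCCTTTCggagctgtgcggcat
Snhg1 (chr19:8723477-8723506): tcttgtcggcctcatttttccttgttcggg
Of the 2 annotated Gas5 starts, the 1 shown held such a match, and the Snhg1 start did not. Among genes with a window, a match at any annotated start was found in 4 of 11 snoRNA host genes and 13 of 30 ribosomal protein genes. The share was 24.1% of the 9990 tested genes with a window. Counted by single window instead of by gene, it was 18.3% of the 32851 promoter windows searched. These matches describe the annotated starts, and no match says only that these letters are not in this window.

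Slc7a11 and Cth, which supply cysteine, were lower with G173R. Slc7a11, the cystine importer that supplies cysteine for glutathione, stood at 103, 108 and 168 CPM with G173R and 151, 154 and 249 CPM with R525H. Both libraries numbered 3 were the highest of their group, so the groups overlapped, but the pairs differed by -0.55, -0.51 and -0.56 on the log2 scale (-0.54 ± 0.05, adjusted p = 0.000197). Cth, which makes cysteine from cystathionine, followed the same pattern with 3.23, 3.14 and 11.3 CPM against 6.15, 7.08 and 20.2 CPM (-0.97 ± 0.12, adjusted p = 0.000937). Slc7a11 was the 1 call among 20 genes of the integrated stress and unfolded protein response, of which 15 had negative values (median -0.067, -0.104 without G173R library 1), and DESeq2 called 3. Both calls held in each fit without 1 of the 6 libraries. They were lost without the block (adjusted p = 0.808 for Slc7a11 and 0.978 for Cth, edgeR). Both were also lost when all libraries numbered 2 were left out, and that for Cth when all numbered 1 were left out.

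The integrated stress response acts through ATF4, which binds amino acid response elements such as TGATGNAA. Since Slc7a11 is a known target, its promoter was searched for those letters on both strands in the 250 bases before the annotated start. The 60 bases shown span positions -80 to -21 relative to the start (GRCm38.p6, minus strand), and capitals mark the matches.
Slc7a11 (chr3:50443634-50443693): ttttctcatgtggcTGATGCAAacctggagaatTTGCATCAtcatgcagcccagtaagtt
The window held 2 matches, 1 on each strand, beginning at positions -66 and -47. Counted by single window, at least 1 match was present in 3.45% of the 32851 promoter windows searched and at least 2 in 0.0396%. Counted by gene, at any annotated start, the shares were 2.4% and 0.0501% of the 9990 tested genes with a window. On the stress list, 5 of 20 genes with a window held a match (Asns, Atf3, Chac1, Herpud1 and Slc7a11). Among called genes with a window, 1 of 38 lower with G173R and 0 of 68 higher held one. A match is a description of the letters and not evidence of binding.

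Several genes of granulocytes and monocytes were lower with G173R, while the macrophage elastase gene Mmp12, described above, was higher (0.66). Tlr4 and Cd14 encode the receptor for bacterial lipopolysaccharide and its partner. Tlr4 stood at 104, 98.7 and 97.4 CPM with G173R and 132, 130 and 135 CPM with R525H (-0.41 ± 0.05, adjusted p = 0.00176), and Cd14 at 57, 55.4 and 48.7 CPM against 71.2, 83.2 and 82.7 CPM (-0.55 ± 0.10, adjusted p = 0.0159). The groups overlapped in neither gene. They were the 2 calls among 15 monocyte and macrophage genes tested, of which 11 had negative values and 4 positive (median -0.16). The medians of pairs 1, 2 and 3 were -0.229, -0.364 and 0.057, so the sign turned in pair 3. The call for Tlr4 was lost with the correction for base composition (adjusted p = 0.137) and the call for Cd14 without G173R library 2 or 3 or R525H library 2 or 3. Cd14 is also 1 of the 6 monocyte markers, which summed to 301 to 341 CPM with G173R and 332 to 357 with R525H, and their part in these results was not tested.

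Ms4a3, a marker of granulocyte and monocyte progenitors, stood at 160, 155 and 58.5 CPM with G173R and 259, 239 and 114 CPM with R525H (-0.75 ± 0.09, adjusted p = 0.00136). The libraries numbered 3 were low in both groups, and G173R was lower in each pair. It was the 1 call among 12 primary granule genes tested (median -0.151, -0.057 without G173R library 3 and -0.075 without R525H library 2). Of the 12 genes, 9 had negative values and 3 positive, the latter in all 3 pairs. Elane, the neutrophil elastase gene, had 9.75 ± 5.25 CPM against 11.5 ± 6.73 (adjusted p = 0.564). Dgat2, an enzyme of triglyceride synthesis, showed the same split by number, with 91.6, 97 and 42 CPM against 136, 138 and 61.9 CPM (-0.55 ± 0.05, adjusted p = 0.000197). Igsf6 (-0.58), the plasminogen activator inhibitor gene Serpinb2 (-0.74), the osteopontin gene Spp1 (-0.60) and the cystatin Stfa1 (-1.18) were also lower, with adjusted p from 0.00649 to 0.042. The call for Serpinb2 was lost in each fit without 1 of the 6 libraries, with the correction for base composition (adjusted p = 0.0538) and in limma voom. That for Igsf6 was lost without G173R library 3 or R525H library 1 or 2, and that for Spp1 without G173R library 1 or 2 or R525H library 1 or 3. Stfa1 belongs to a cluster of near-identical genes between which the counting may have divided reads. Of 11 late neutrophil genes and 10 mast cell and basophil genes tested, none was called in either direction with edgeR or limma voom. In these lists 2 and 4 genes had an unadjusted p under 0.05 in edgeR, and DESeq2 called 1 late neutrophil gene higher and 1 mast cell gene lower with G173R. The late neutrophil median was -0.31 (-0.16 without R525H library 3), with 8 negative and 3 positive values. The mast cell and basophil median was 0.168, with 7 positive and 3 negative values. The next 2 examples went against the medians of their lists. The collagenase Mmp8 had 26.4 ± 11 CPM against 19.1 ± 8.68 (adjusted p = 0.15), and the histamine-forming enzyme Hdc 107 ± 14.4 against 129 ± 22.9 (adjusted p = 0.135).

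Innate immune genes were called in both directions. Ifi209 and Ifi204 belong to the AIM2-like receptors, a family of DNA-binding proteins encoded side by side. Ifi209 stood at 21.7, 20.8 and 16.1 CPM with G173R and 13.4, 11.1 and 8.76 CPM with R525H (0.82 ± 0.09, adjusted p = 0.000378). Ifi204 stood at 56.9, 48.3 and 49.8 CPM against 38.1, 37.7 and 29.6 CPM (0.56 ± 0.09, adjusted p = 0.0105). Both were higher in each G173R library than in any R525H library, although members of this family are similar enough that reads may be divided between them. The call for Ifi204, the 1 call among 16 genes of DNA and RNA sensing tested with edgeR, was lost without G173R library 1 or 3 or R525H library 3. The median of that list was 0.068, with values from -0.02 without R525H library 3 to 0.161 without R525H library 2, and DESeq2 called 2. Cxcl10, a chemokine induced by interferon, went the other way, with 6.61, 8.14 and 8.32 CPM against 14.6, 16.7 and 21.6 CPM (-1.18 ± 0.25, adjusted p = 0.0407). Its call was lost in each fit without 1 of the 6 libraries, with the correction for base composition (adjusted p = 0.0529) and in limma voom. It was the 1 call among 16 interferon-stimulated genes tested, of which 10 had positive values (median 0.178, 0.09 without G173R library 3), and DESeq2 called 1 higher and 1 lower. Mx1, an antiviral GTPase, had 2.15 ± 0.616 CPM with G173R and 1.03 ± 0.264 with R525H (adjusted p = 0.113).

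Few genes of RNA metabolism were called, although most had slightly negative values. Clk3, a kinase that phosphorylates splicing factors, stood at 52.9, 54.9 and 59 CPM with G173R and 71.9, 79 and 84.2 CPM with R525H (-0.49 ± 0.06, adjusted p = 0.000812). It was the 1 call among 20 genes of SR proteins and their kinases, of which DESeq2 called 2. Their median was -0.066 (-0.035 without G173R library 3 and -0.121 without R525H library 1). Fam133b, whose product is little studied, had 67.2, 64.5 and 71.1 CPM against 102, 98.7 and 130 CPM (-0.70 ± 0.07, adjusted p = 0.00015). In both genes the groups did not overlap. No gene was called among 35 spliceosome genes (median -0.087, 28 negative), 34 DEAD and DEAH box helicases (-0.118, 29 negative), 30 ribosome biogenesis factors (-0.168, 30 negative), 15 nonsense-mediated decay factors (-0.064, 15 negative) or 40 ribosomal proteins (-0.035, 30 negative), and 9, 11, 11, 3 and 1 of them had an unadjusted p under 0.05 in edgeR. In these lists limma voom called none, and DESeq2 called 2 helicases and 1 decay factor, all lower with G173R. Ddx39a, a helicase of mRNA export, had 298 ± 66.2 CPM against 379 ± 39.8 (adjusted p = 0.0647), and Gnl3, the nucleolar GTPase nucleostemin, 182 ± 37.3 against 218 ± 12.3 (adjusted p = 0.165). The value for ribosome biogenesis rested largely on 1 library: the pair medians were -0.072, -0.036 and -0.452, and the median was -0.05 without G173R library 3. Without that library the medians were -0.033 for the spliceosome, -0.05 for the helicases and 0.005 for the ribosomal proteins, whose sign turned. The ribosomal protein median was also -0.057 without G173R library 1, -0.012 without R525H library 1 and -0.068 without R525H library 2. For the decay factors it was -0.113 and -0.136 without G173R library 1 and 2, and -0.102 and -0.116 without R525H library 1 and 3.

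Histone genes had positive values throughout, which rested on few libraries. The 2 called members were H1f0, the linker histone of slowly dividing cells (31, 34 and 36.6 CPM with G173R against 22.5, 23.7 and 25.2 CPM, 0.50 ± 0.08, adjusted p = 0.00862), and H2az2, which encodes a variant of H2A (43.5, 42.1 and 44.4 CPM against 34.8, 34.2 and 31.3 CPM, 0.37 ± 0.08, adjusted p = 0.0315). Both give polyadenylated RNAs, unlike the replication-dependent histone genes that make up most of the list. All 26 histone genes tested had positive values (median 0.269). The median was -0.023 without G173R library 2, so its sign depended on 1 library, and it was 0.469 without G173R library 3, 0.462 without R525H library 2 and 0.106 without R525H library 3. The call for H1f0 was lost without G173R library 1 or R525H library 3, and that for H2az2 without G173R library 1 or 3 or R525H library 2 or 3.

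Of 14 erythroid and megakaryocyte genes tested, none was called with edgeR or limma voom, 5 had an unadjusted p under 0.05 in edgeR, and DESeq2 called 1. Their median was 0.605, the most positive of the lists with at least 10 genes tested, and 12 of the 14 were positive. Levels were low: the transcription factor Gata1 had 1.02 ± 0.0987 CPM with G173R and 0.563 ± 0.228 with R525H (adjusted p = 0.283), and the platelet glycoprotein gene Gp9 4.09 ± 1.66 against 2.47 ± 0.275 (adjusted p = 0.101). The median was 0.207 without G173R library 3. The 5 erythroid markers summed to 2.12 to 2.47 CPM against 1.08 to 1.63 CPM and include 4 of the genes tested in this list, and their part in it was not tested.

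**Figure D3:**
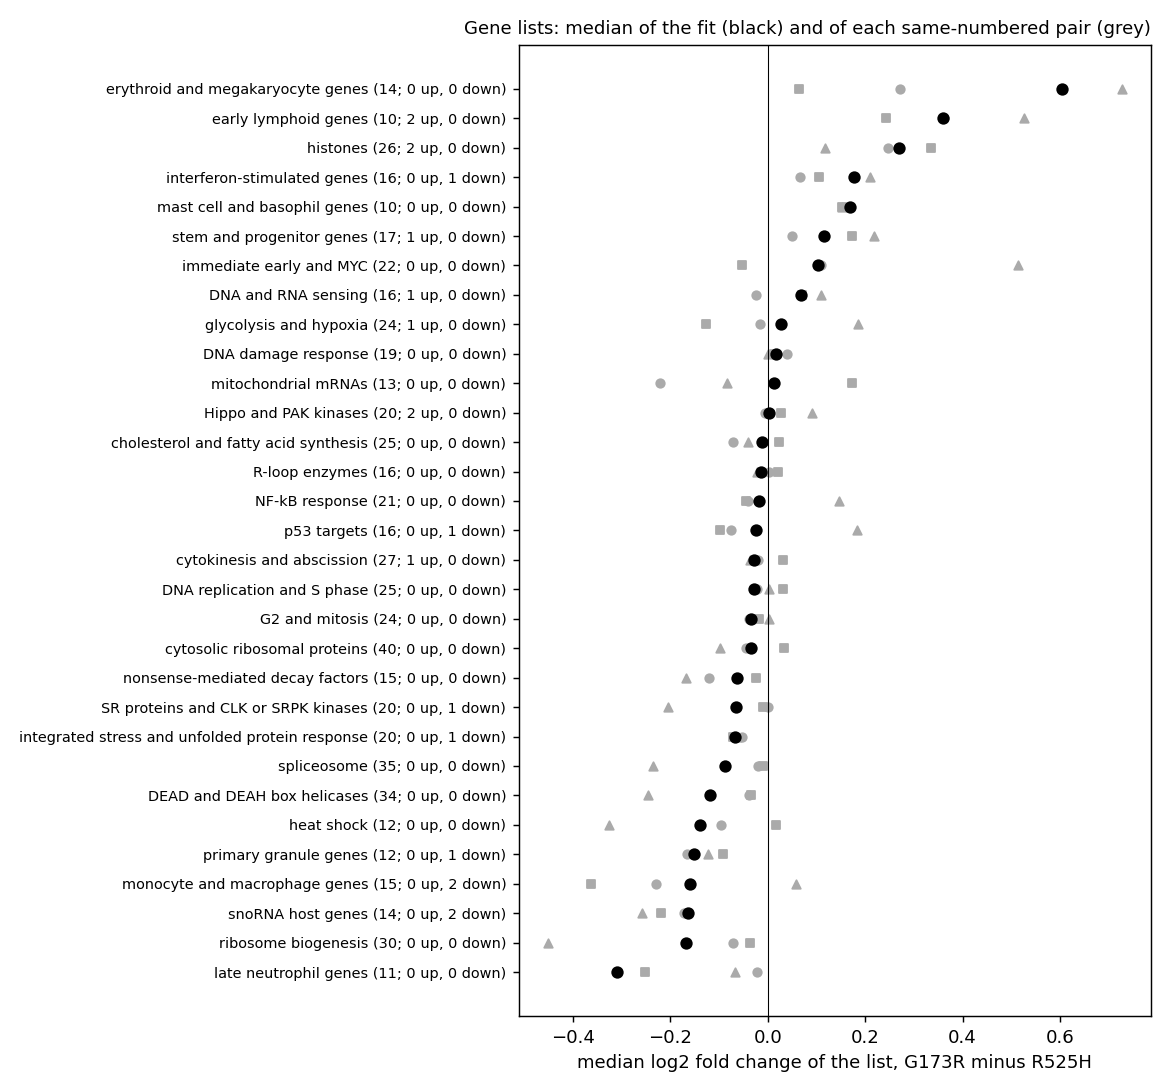
Median log2 fold change of G173R minus R525H for each gene list with at least 10 genes tested (black points, horizontal axis), with the medians of the 3 same-numbered pairs (grey circles, squares and triangles for pairs 1, 2 and 3); numbers in brackets are genes tested and genes called. The pair medians use log2 CPM with a prior count of 2, which draws low genes toward 0, so the black point can lie outside them; pair 3 stands apart for ribosome biogenesis (-0.452) and for erythroid and megakaryocyte genes (0.727).

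Metabolic and stress lists held few calls. Pfkm, the muscle form of phosphofructokinase, was the 1 call among 24 glycolysis and hypoxia genes, at 63.2, 56.4 and 90.7 CPM with G173R against 47.8, 48.3 and 62.8 CPM (0.39 ± 0.08, adjusted p = 0.0272). Ccng1, a target of p53 that encodes cyclin G1, was the 1 call among 16 p53 targets, at 299, 288 and 360 CPM against 379, 369 and 437 CPM (-0.33 ± 0.06, adjusted p = 0.0105). Both calls were lost with the correction for base composition (adjusted p = 0.114 and 0.313). That for Pfkm was lost in each fit without 1 library except G173R library 2, and that for Ccng1 without G173R library 2 or R525H library 1 or 2. No gene was called among 25 of cholesterol and fatty acid synthesis, 12 heat shock, 22 immediate early, 21 NF-kB, 19 DNA damage or 16 R-loop genes, of which 0, 4, 1, 1, 2 and 4 had an unadjusted p under 0.05 in edgeR. In these lists limma voom called none, and DESeq2 called 1 heat shock gene and 1 DNA damage gene, both lower with G173R. The chaperonin Hspd1, for example, had 1290 ± 327 CPM against 1600 ± 66.8 (adjusted p = 0.117), and the AP-1 subunit Jun 40.2 ± 21.2 against 31.1 ± 9.1 (adjusted p = 0.212). Both differences rested largely on pair 3: the log2 values of the pairs were -0.18, -0.12 and -0.75 for Hspd1 and 0.11, 0.12 and 0.64 for Jun. The heat shock median was -0.14 (pairs -0.096, 0.016 and -0.326) and the immediate early median 0.103 (pairs 0.109, -0.053 and 0.513).

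Igf2r and Elfn2, which are on none of the lists, were lower with G173R. Igf2r, the receptor that carries mannose 6-phosphate proteins to lysosomes, stood at 3.99, 3.59 and 2.92 CPM with G173R and 6.62, 6.96 and 6.54 CPM with R525H (-0.95 ± 0.16, adjusted p = 0.0111). Elfn2, a membrane protein best known from neurons, stood at 2.94, 3.01 and 4.77 CPM against 5.92, 7.28 and 7.76 CPM (-0.99 ± 0.18, adjusted p = 0.0137). In both genes the groups did not overlap, at levels of a few CPM. The call for Igf2r was lost without any 1 G173R library or R525H library 2 or 3, and that for Elfn2 without G173R library 1 or 2 or R525H library 2 or 3.

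The levels of the 141 genes in the other groups show on which side each vector lay. These comparisons share libraries with each other and with the G173R against R525H comparison, so their values are given side by side as a description. For G173R against Het empty no gene was called in edgeR, with 240 genes (1.65%) at an unadjusted p under 0.05 and 0 calls without the block. The share at that unadjusted p was 11.4% for R525H against Het empty. For R525H against Het empty 63 genes (0.433%) were called, 16 higher (0.11%) and 47 lower (0.323%) with R525H. Against Het DDX41, 1 gene (0.00687%) was called for G173R (Cep55, higher, log2 0.48, adjusted p = 0.0288) and 59 (0.406%) for R525H. The calls for R525H depended on the block, since without it 2 remained against Het empty and 0 against Het DDX41.

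Of the 85 genes higher with G173R, the Het empty mean was nearer to the G173R than to the R525H mean in 84, the Het DDX41 mean in 76 and the WT empty mean in 74. Of the 56 lower genes, the counts were 54, 39 and 45. The median over the 85 genes was -0.40 for R525H minus Het empty and 0.05 for G173R minus Het empty, and over the 56 genes 0.36 and -0.12. The counts of nearer means cover only genes called on the G173R and R525H libraries, and none was made over all genes. The deposited names read as empty vector for G173R and wild-type DDX41 for R525H, and whether they or the titles are right was not tested. By title, the R525H libraries were the ones that stood apart for most of these genes. Stk4, for example, had 435, 435 and 361 CPM in Het empty, 394, 393 and 305 in Het DDX41 and 446, 500 and 451 in WT empty, all above the 230 to 261 CPM of R525H. Cep55 differed from this pattern in part, with 73.4, 74.4 and 63.6 CPM in Het DDX41 against 91.9, 97.8 and 93.1 in Het empty. Chchd1 likewise stood at 37.2, 31.5 and 27.4 CPM in Het DDX41 and 48.4, 48.3 and 41.7 in Het empty. Mmp12 and Ccnd1 were far higher in the WT line (373 ± 40.7 and 40.1 ± 5.55 CPM) than in any Het group, so WT empty is not near either vector for these genes.

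**Figure D4:**
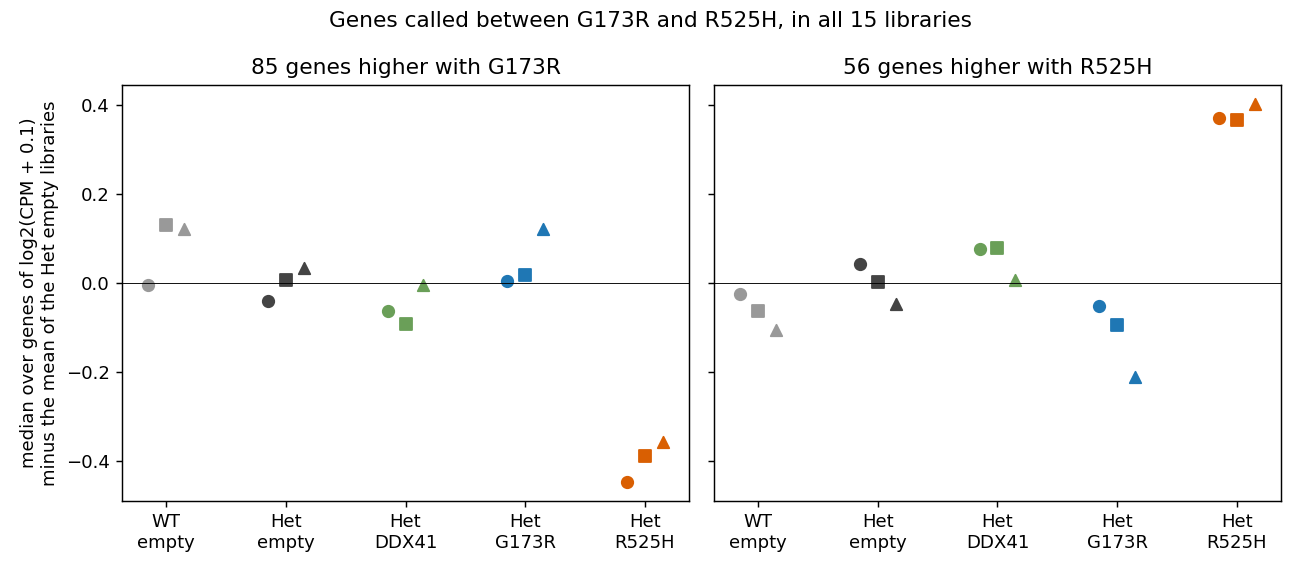
Median over the 85 genes called higher with G173R (left) and the 56 called lower (right) of log2(CPM + 0.1) minus the mean of the Het empty libraries, for each of the 15 libraries (circles, squares and triangles for libraries 1, 2 and 3). The R525H libraries lie at -0.446, -0.388 and -0.357 on the left and at 0.371, 0.367 and 0.403 on the right, away from the other 12 libraries; the genes were chosen on the G173R and R525H libraries, so the gap between those 2 groups is a description.

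The called genes differed in composition from the rest. Among protein-coding genes, those higher with G173R had a median GC content of 51.8% and 12 exons, those lower 45.9% and 8 exons, and all tested 49.8% and 8 exons. GC content moved with the fold change across all genes: the median log2 difference rose from -0.044 in the fifth of genes with the lowest GC content to 0.07 in the fifth with the highest, and in each of the 3 pairs separately from between -0.047 and -0.027 to between 0.058 and 0.079. With counts corrected for GC content in each library, a setting chosen after the data were seen, 80 genes were called, 78 of them among the 141, with 44 higher and 36 lower. Of the 37 called genes that the naming rule picked, 30 passed with this correction. The part of base composition in the other calls was not tested.

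The tables also give for each gene the mean length of its transcripts weighted by their estimated abundance, which shifts when a different isoform is used. Of 9072 genes tested with limma, 4 (0.0441%) were called, all longer with G173R, and 725 had an unadjusted p under 0.05, of which 464 were longer with G173R. Ybx1, an abundant RNA-binding protein, had a mean length of 1561, 1562 and 1560 bases with G173R and 1415, 1406 and 1391 bases with R525H (log2 0.15, adjusted p = 0.000179). Its count differed little (-0.09, adjusted p = 0.627). Wdr45, an autophagy protein, had 1490, 1479 and 1457 bases against 1386, 1366 and 1361 bases (log2 0.11, adjusted p = 0.00807). Fxyd5, a regulator of the sodium pump, had 787, 795 and 773 bases against 728, 720 and 736 bases (adjusted p = 0.0444), and Ankrd13a, which binds ubiquitin chains, 2706, 2783 and 2815 bases against 2524, 2597 and 2526 bases (adjusted p = 0.0457). In none of the 4 genes did the groups overlap, compared with 10.8% of genes tested whose groups did not. The 4 were called on these same libraries, so this is a description. Ankrd13a was the 1 gene of the 4 that was also called by count (log2 0.30, adjusted p = 0.0432).

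For Ybx1, Wdr45 and Fxyd5 the Het DDX41 mean lay nearer the R525H than the G173R mean, and the means of both empty vector groups nearer G173R. Groups follow the titles here too, while the deposited names read as empty vector for G173R and wild-type DDX41 for R525H. Ybx1 averaged 1545 ± 6.46 bases in Het empty and 1557 ± 15.7 in WT empty, near G173R, and 1441 ± 13.1 in Het DDX41, between the 2 vectors and nearer R525H. Wdr45 averaged 1466 ± 16.1 bases in Het empty, 1463 ± 24.8 in WT empty and 1353 ± 6.66 in Het DDX41, where it was as short as with R525H (1371 ± 13). Fxyd5 averaged 752 ± 9.99 bases in Het DDX41, between 728 ± 7.96 with R525H and 785 ± 11 with G173R. For Ankrd13a the Het DDX41 mean (2692 ± 29.8) was nearer to G173R (2768 ± 56.3) than to R525H (2549 ± 41.9). The 4 calls depended on pooling the spread with the other groups, since 0 genes passed in a fit to the 6 libraries alone. In fits without 1 of the 6 libraries 1 to 9 genes passed, of which only 1 to 3 were among the 4.

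**Figure D5:**
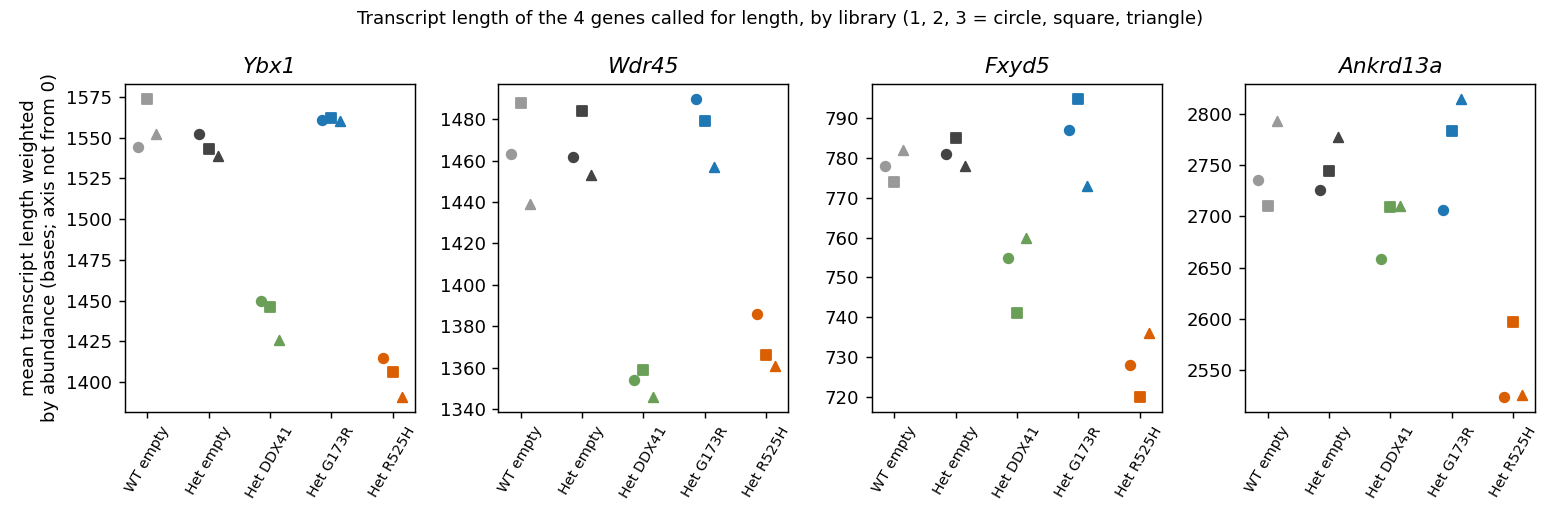
Abundance-weighted mean transcript length in bases (vertical axes, not from 0) of the 4 genes called for length, in the 15 libraries of the 5 groups (circles, squares and triangles for libraries 1, 2 and 3). For Ybx1, Wdr45 and Fxyd5 the Het DDX41 libraries lie below WT empty, Het empty and Het G173R, in the direction of Het R525H.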

How the data were processed

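RNA of 15 libraries was compared as 5 groups of 3, and 6 libraries (Het G173R and Het R525H) make up the comparison; members, gene lists and tests were chosen with earlier results of these data known. The authors deposited for each library a table of 55359 genes with the expected count of reads per gene, estimated by RSEM per the submitters' processing notes; its version is not given in the sources used here, nor are the aligner, genome build and strand setting. The deposited TPM values, which the authors' program scaled by transcript length per the file headers, were read only for Ddx41 (14.6 to 17.4 TPM in the 6 libraries), and the deposited abundance-weighted transcript length in bases was tested on a log2 scale. Since strand use in counting is unknown, overlapping and antisense genes cannot be told apart.

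Expected counts were rounded to whole numbers (which moves a gene by at most 0.5 counts). With edgeR 4.0.16 in R 4.3.3, filterByExpr kept 14548 genes, libraries were scaled by TMM, and a quasi-likelihood model with group and replicate number was fitted to all 15 libraries (8 residual degrees of freedom, common dispersion 0.00965). P-values were adjusted by Benjamini-Hochberg over all genes tested, and a gene was called at an adjusted p under 0.05. CPM use TMM-scaled totals, values with ± are mean and SD of 3 libraries, and a log2 difference with ± is followed by its SE. Transcript length was tested with limma 3.58.1 for genes with a mean expected count of at least 100. Depth was 22104066 to 40527116 expected counts per library. GC content, exons and gene types came from GENCODE M21 (14503 genes matched, 99.7%), and promoter windows from RefSeq (GRCm38.p6); the build of the deposited tables may differ, so no coordinates of the tables were used.

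The replicate numbers, taken from the titles, were used as a block. With the mean of each vector removed, levels in pairs 1, 2 and 3 correlated across genes at 0.287, 0.426 and 0.643. Unequal numbers gave -0.51 to 0.25, with 0.25 and 0.153 between numbers 1 and 2. The deviations of a gene within a vector sum to 0, so positive values for equal numbers are in part balanced by negative values elsewhere. The correlations set apart mainly the libraries numbered 3. With the means kept, G173R library 1 correlated at 0.989 with R525H library 1 and at 0.9895 with R525H library 2. For G173R library 2 the values were 0.9865 and 0.9902. The pairing of numbers 1 and 2 was thus only weakly visible. Genes named are Ddx41 and, among called genes of at least 5 CPM in the higher group that moved the same way in all pairs and are no predicted model, the 12 largest rises, the 12 largest falls and the 6 smallest p; called members of the lists, up to 4 each; and 2 members of lists without a call. Genes outside that rule that are named for a count, a marker list or an example of a list were chosen after their values were seen. Alternatives were the fit without the block, other sets of libraries, DESeq2 1.42.0, limma voom, other scalings and filters, leaving out libraries, and a GC correction. The scripts were tested on simulated data.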

Additional observations from a re-analysis of the deposited data

How the results depend on the processing

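The 141 genes called for G173R against R525H with the replicate block became 12 without the block, 336 in the 6 libraries alone with the block, 0 in the 6 libraries alone without it (594 at an unadjusted p under 0.05), 472 with DESeq2, 230 with no filter on low counts, 236 with a mean of at least 5 CPM and 80 with the GC correction, a setting chosen after seeing the data. Counts were 6 to 100 when libraries were left out (6 without replicate 2, 18 without replicate 1, 68 without replicate 3). All 12 genes called without the block and 137 of the 336 were among the 141. Limma voom called 128, RLE scaling 149, library totals 197 and the 12 Het libraries 187. The 37 called genes named by the rule kept their direction under each of these settings in which they were tested (34 of them with a mean of at least 5 CPM); 9 passed without the block, 34 in limma voom, 30 with the GC correction and 18 in every fit without 1 of the 6 libraries. The 4 calls for transcript length became 10 without the block, 16 with a mean expected count of at least 500, 0 in the 6 libraries alone and 1 to 9 without 1 library. In those fits without 1 library, only 1 to 3 of the 4 passed. For the other groups, without the block (chosen after seeing the data), 2 of 63 genes passed for R525H against Het empty, 0 of 59 for R525H against Het DDX41 and 0 of 1 for G173R against Het DDX41. Apart from fewer samples or other gene sets tested, the cause of these shifts was not tested. R525H library 3 was the shallowest of the 6. The main fit to all 15 libraries had 8 residual degrees of freedom, and the 6 libraries alone with the block had 2. With 3 libraries a group, absence of a call does not show equal levels.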
